A study of Mus musculus with 12 samples.

Results

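The genes described here are 10 transcription factors that direct blood progenitors into the myeloid lineages: *Spi1*, which encodes PU.1, the C/EBP factors *Cebpa*, *Cebpb*, *Cebpd* and *Cebpe*, the interferon regulatory factors *Irf8*, *Irf4* and *Irf5*, the repressor *Gfi1* and the Runt factor *Runx3*. They were chosen by name, with earlier results of these data known, from a table of gene abundances for 15651 genes, of which 15252 have a symbol. All 10 were present and passed the filter on low values in every comparison. The RNA came from c-Kit+ leukemic splenocytes of moribund mice with acute myeloid leukemia (AML), on a C57BL6/J background. *D/F* mice carry Dnmt3a fl/fl, Flt3 ITD/ITD and Mx1-Cre, and *T/F* mice carry Tet2 fl/fl, Flt3 ITD/ITD and Mx1-Cre, so all groups share the *Flt3* internal tandem duplication and the Cre transgene. Cre was driven by the interferon-inducible *Mx1* promoter, which is not specific to blood cells, and no inducer was given, so that deletion of one or both floxed alleles was spontaneous. Cells were enriched on CD117 beads, cultured in medium with SCF, IL-6 and IL-3, and those of each mouse were split into a DMSO control and a CCS1477 culture, both kept for 6 hours. CCS1477 is a small molecule that occupies the bromodomains of the histone acetyltransferases p300 and CBP. The dose was 4 µM in *D/F* and 2 µM in *T/F* cells. There were 3 mice of each genotype, hence 12 libraries in 4 groups, and by the sample labels a replicate number stands for the same mouse under both treatments. The mice's ages are not given in the sources used here.

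PU.1 and C/EBPα set up the myeloid program together: PU.1 binds ETS sites at enhancers of most myeloid genes, and C/EBPα is required for progenitors to become granulocyte and monocyte precursors. IRF8 works with PU.1 in monocytes and dendritic cells, and C/EBPε and GFI1 act later, on the neutrophil branch. Many of these genes depend on clusters of acetylated enhancers, which is the layer on which p300 and CBP act, and the balance among the factors helps to decide which branch a progenitor takes.

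The values are TPM, the length-normalized share of a library's transcripts that a gene makes up, as the authors deposited them. The 12 libraries sum to between 914204 and 931697 TPM, the number of reads behind a value is not in the table, and with 3 mice a group the precision is the spread between mice. Of the targeted genes, *Dnmt3a* overlapped between the genotypes under both treatments, with 29.3 to 55.7 TPM over the 6 *D/F* libraries and 39.9 to 57.2 TPM over the 6 *T/F* libraries. *Tet2* was lower in *T/F* with no overlap under either treatment, at 29.99 to 35.8 TPM against 38.3 to 43.4 TPM in DMSO and at 24.6 to 28.7 TPM against 32.5 to 35.6 TPM in CCS1477. The table has 1 value per gene, so a missing exon cannot be read from it. *Kit*, the receptor used for enrichment, was at 50.5, 148.8 and 60.9 TPM in the *D/F* DMSO replicates and at 55.5, 50.5 and 67.0 TPM in *T/F*, whereas *Ptprc*, which encodes the pan-leukocyte antigen CD45, was at only 0.826 to 3.11 TPM over all 12 libraries. Markers of stroma (0 of 4) were not among the genes in the table. Of the T cell markers 4 of 6 were, with a summed 17.5 to 48.1 TPM over all 12 libraries but without *Cd3e* and *Cd3g*, and of the B cell markers 2 of 5, with a summed 4.13 to 23.2 TPM. *D/F* replicate 2 stood apart. Its summed TPM over 7 mature neutrophil markers was 2681 in DMSO against 9425 and 6279 in *D/F* replicates 1 and 3, and its summed TPM over 3 megakaryocyte markers was 199.3 against 32.6 and 46.2. In *T/F*, replicate 3 had the lowest neutrophil sum in DMSO, 2333 TPM against 7155 and 5645. In bulk RNA, fewer cells of a type and less RNA per cell cannot be told apart.

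In DMSO, 9 of the 10 factors had a mean above that of at least 63.4% (*D/F*) and 69.6% (*T/F*) of all genes, and *Irf4* one above 22.7% and 26.9%. *Spi1* had the highest mean of the 10 in both genotypes, with 139.5 ± 8.97 (SD, n = 3) for *D/F* mice and 161.7 ± 8.55 for *T/F* mice, above 93.1% and 94.1% of all genes. In *D/F* it was followed by *Cebpa*, *Runx3*, *Cebpb*, *Gfi1*, *Irf8*, *Cebpe*, *Irf5*, *Cebpd* and *Irf4*, and each neighbour in that order overlapped the next in TPM except *Cebpd* (31.1 ± 13.4 TPM) and *Irf4* (4.15 ± 2.99 TPM). In *T/F* the order was *Spi1*, *Cebpb*, *Cebpa*, *Irf8*, *Runx3*, *Irf5*, *Gfi1*, *Cebpd*, *Cebpe* and *Irf4*, with a gap between *Gfi1* (56.5 ± 3.58 TPM) and *Cebpd* (43.0 ± 7.51 TPM) and between *Cebpe* (38.9 ± 10.5 TPM) and *Irf4* (4.80 ± 2.11 TPM). *Spi1* and *Cebpa* were the steadiest across the *D/F* mice, with a coefficient of variation of 6.43% and 6.20% in DMSO, against 39.2 to 72.0% for the other 8 factors.

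**Figure D1:**
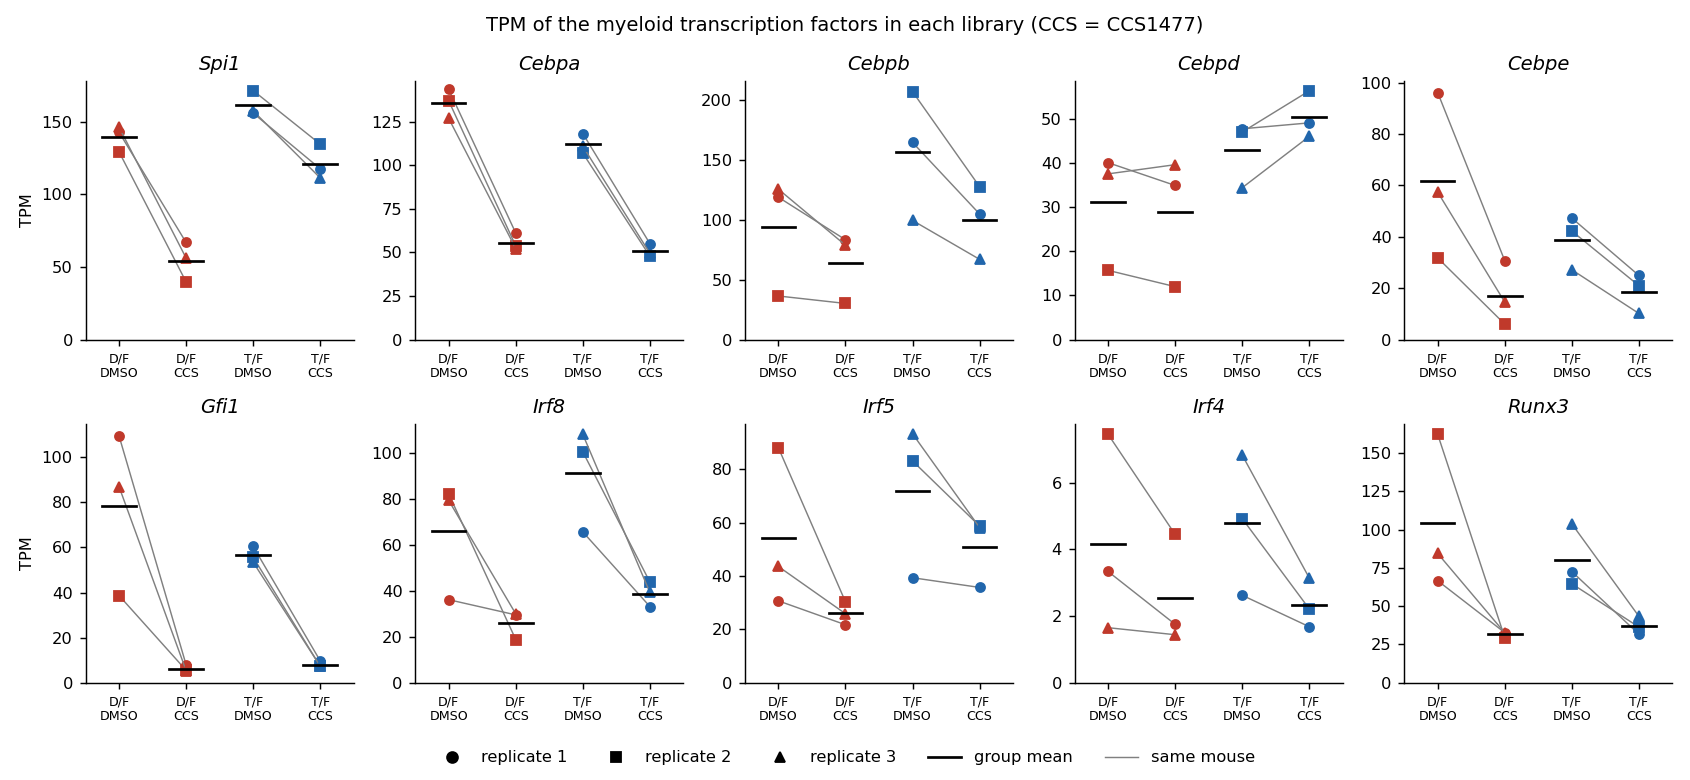
TPM of each of the 10 factors (y axes, linear, each from 0) by group (x axis: *D/F* and *T/F*, DMSO and CCS1477); points are libraries, grey lines join the 2 libraries of a mouse and black bars are group means. Every mouse's line goes down for 9 genes, *Gfi1* drops from a mean of 78.3 to 6.28 in *D/F* and of 56.5 to 8.08 in *T/F*, and the lines of *Cebpd* run both ways.

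The 10 genes lie on 9 chromosomes of GRCm38, by the GENCODE vM21 annotation. *Spi1* is at chr2:91082390-91115756 and *Cebpb*, a gene of 1 exon, at chr2:167688915-167690418, both on the plus strand. *Cebpa* is at chr7:35119293-35121928 (plus), *Cebpd* at chr16:15887286-15891031 (plus), *Cebpe* at chr14:54710360-54712174 (minus), *Irf8* at chr8:120736358-120756694 (plus), *Irf4* at chr13:30749226-30766976 (plus), *Irf5* at chr6:29526625-29541871 (plus), *Gfi1* at chr5:107716657-107726036 (minus) and *Runx3* at chr4:135120652-135177990 (plus). Genes on the opposite strand that are also in the table overlap *Cebpb* (*Tmem189*), *Cebpd* (*Spidr*), *Irf5* (*Tnpo3*), *Gfi1* (*A430072P03Rik*) and *Runx3* (*Gm16224*). The library kit marks strand, but the strand setting of the quantification is not given in the sources used here, so a part of those 5 values could come from the overlapping gene. *Irf8* overlaps *Gm20388*, a protein-coding gene on the same strand that is not in the table, and strand would not tell these apart.

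The RefSeq promoter table of GRCm38.p6 held 10 windows for 7 of the genes, and *Spi1*, *Cebpd* and *Cebpe* have no entry in it. The 250 bases before the start site are given for 3 genes that fell in both genotypes, at chr5:107725806-107726055 on the minus strand for *Gfi1*, chr7:35119043-35119292 on the plus strand for *Cebpa* and chr4:135120395-135120644 on the plus strand for *Runx3*, 5′ to 3′, with letter matches to the motifs searched in capitals.
Gfi1: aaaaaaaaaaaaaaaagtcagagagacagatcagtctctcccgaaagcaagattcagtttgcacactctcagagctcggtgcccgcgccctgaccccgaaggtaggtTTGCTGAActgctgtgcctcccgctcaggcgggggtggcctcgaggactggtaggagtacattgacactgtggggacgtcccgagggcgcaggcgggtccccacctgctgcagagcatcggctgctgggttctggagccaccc
Cebpa: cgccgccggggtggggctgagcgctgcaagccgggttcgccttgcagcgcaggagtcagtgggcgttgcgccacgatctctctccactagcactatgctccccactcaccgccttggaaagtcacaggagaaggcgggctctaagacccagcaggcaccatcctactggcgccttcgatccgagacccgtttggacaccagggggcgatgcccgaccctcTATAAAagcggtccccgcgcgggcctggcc
Runx3: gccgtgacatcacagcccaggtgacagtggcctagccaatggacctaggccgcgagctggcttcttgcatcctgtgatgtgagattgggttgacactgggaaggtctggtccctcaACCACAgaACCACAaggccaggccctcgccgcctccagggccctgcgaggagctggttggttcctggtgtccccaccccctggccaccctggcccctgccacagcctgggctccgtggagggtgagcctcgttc
Core motifs were searched on both strands, with overlaps allowed. The ETS core AGGAAG occurred in 29.5% of 32851 promoter windows of this length, the RUNX core TGTGGT in 14.0%, the C/EBP core TTGCNNAA in 9.56%, the IRF repeat (GAAA, any 2 bases, GAAA) in 2.98%, the GFI1 core AAATCA in 12.4% and the TATA box TATAAA in 12.4%. The RefSeq start of *Gfi1* lies inside the GENCODE gene, so that both of its windows overlap the gene as placed above. The capitals mark 1 C/EBP match before this RefSeq start of *Gfi1*, the TATA box of *Cebpa* and, upstream of *Runx3*, 2 RUNX matches read on the minus strand. Of the 10 windows, 1 held an ETS match (the second *Gfi1* window), 1 a RUNX match, 1 a C/EBP match, 2 a GFI1 match (both of *Irf8*), 3 a TATA box (*Cebpa*, *Irf8* and *Irf4*) and 0 an IRF match. These are letter matches within the windows, with no measurement of binding behind them.

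In the fit without pairing by mouse, CCS1477 lowered 4 factors in both genotypes, *Spi1*, *Cebpa*, *Gfi1* and *Runx3*. With the mouse as a block, *Cebpb*, *Cebpe* and *Irf5* passed in both genotypes as well. *Irf8* fell in *T/F*, and its *D/F* difference was of like size but did not pass. In *D/F*, 4 of the 10 genes fell and 0 rose by limma on log2(TPM + 1) at a Benjamini-Hochberg adjusted p under 0.05, where 6.51% of the 15501 genes tested fell and 5.14% rose. All 4 fell by more than 2-fold, where 4.61% of all genes did. In *T/F*, 5 of the 10 fell and 0 rose, where 17.6% of the 15256 genes tested fell and 25.8% rose, and all of them except *Spi1* fell by more than 2-fold, where 4.7% of all genes did. For *D/F* the 10 genes had a median log2 difference of -1.26, beside 0.06 over all genes tested, and for *T/F* one of -0.91, beside 0.07. With the mouse as a block, 7 genes fell in *D/F*, where 18% of all genes fell and 21.4% rose, and 9 in *T/F*, where 22.9% fell and 31.2% rose, and again 0 of the 10 rose. Without *D/F* replicate 1 or replicate 3, the limma fit of 2 mice called 0 of the 10 genes and 0 of the table, so these fits say nothing on single factors. The log2 differences in them were -1.52 and -1.38 for *Spi1*, -1.30 and -1.28 for *Cebpa*, -3.20 and -3.12 for *Gfi1* and -1.88 and -1.71 for *Runx3*. Without *D/F* replicate 2, 5 of the 10 fell, beside 10.8% of all genes. With the block, 5 fell without replicate 1 (7.01% of all genes), 7 without replicate 2 (15.2%) and 0 without replicate 3 (0%). In *T/F*, 4 fell without replicate 1 (10.1% of all genes), 3 without replicate 2 (9.47%) and 4 without replicate 3 (14.5%), and with the block 9 (17.8%), 7 (15.4%) and 7 (16.9%).

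Summed markers of progenitors and of other cell types were also lower after CCS1477, without overlap in either genotype for 4 lists. For 6 progenitor and blast markers the sum was 545.5 to 1090 TPM in *D/F* DMSO and 153.2 to 216.9 TPM in CCS1477, and 431.9 to 592.3 and 166.9 to 259.1 TPM among the *T/F* mice. These are genes of the enriched cells themselves, with *Myb*, a cofactor described with its list, giving a large part of the sum. *Kit* is one of them, at 22.8, 54.9 and 25.1 TPM in the *D/F* replicates and 24.8, 24.2 and 42.6 TPM in the *T/F* replicates after CCS1477. For 4 of 5 mast cell and basophil markers the *D/F* sum was 89.5 to 183.1 TPM and 18.8 to 44.0 TPM, and the *T/F* sum 42.5 to 81.0 and 19.2 to 38.6 TPM. The other such lists were the B cell and macrophage markers. The sums of T cell, NK cell, plasma cell, dendritic cell, neutrophil, erythroid and megakaryocyte markers overlapped between treatments in at least 1 genotype. The part of cell make-up in the results for the 10 factors was not tested.

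Taking each mouse as its own control, 9 of the 10 factors were lower after CCS1477 in all 6 mice, which 24.2% of 15583 genes were. For each of the 9, an exact sign-flip permutation test of the 6 within-mouse differences gave p = 0.031 (two-sided), the smallest p that 6 mice allow. *Cebpd* was lower in 2 of 6 mice (exact p = 0.75). The TPM of the 2 treatments did not overlap for 7 of the 10 genes in *D/F*, with CCS1477 below DMSO, as for 16.7% of all genes, and for 6 of the 10 in *T/F*, as for 22.6% of all genes. With 3 mice a genotype, the exact permutation test of 3 values against 3 cannot go below 0.1, which it gave for each of those genes.

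**Figure D2:**
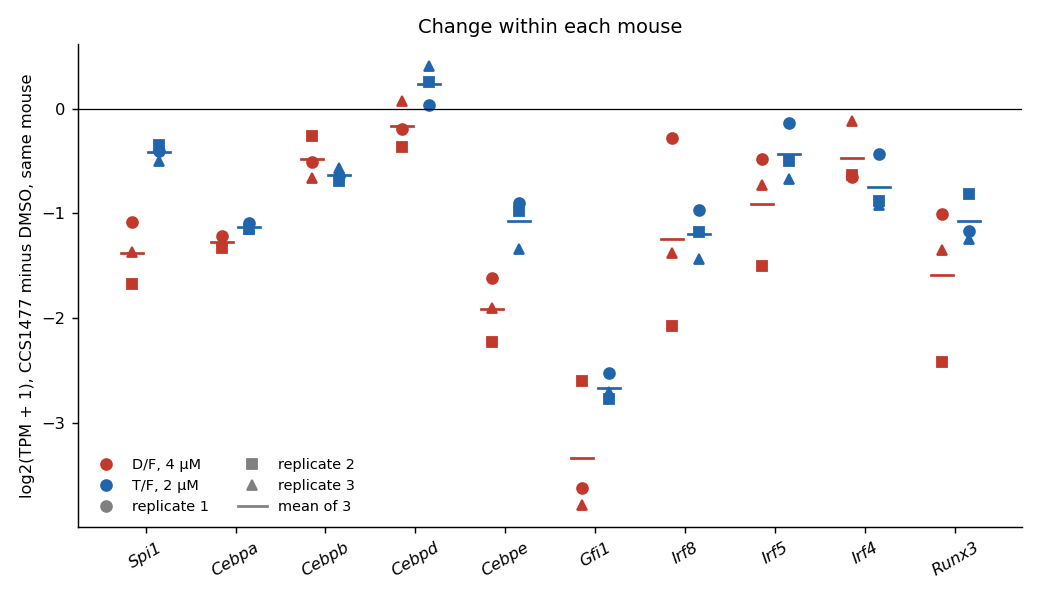
Within-mouse difference of log2(TPM + 1), CCS1477 minus DMSO (y axis), for each factor (x axis) in the 3 *D/F* mice (red, 4 µM) and the 3 *T/F* mice (blue, 2 µM); symbols are replicates and short bars are means of 3 mice. *Gfi1* lies lowest, between -3.79 and -2.53, *Cebpa* is the tightest, between -1.33 and -1.09, and only *Cebpd* has points on both sides of 0.

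*Spi1* encodes PU.1, the ETS factor that opens myeloid enhancers and whose amount, more than its mere presence, directs lineage choice. In *D/F* cells it was at 142.8, 129.3 and 146.3 TPM in DMSO and at 66.9, 39.7 and 56.1 TPM in CCS1477, in replicate order. The *T/F* values were 156.0, 171.5 and 157.5 TPM in DMSO and 117.6, 134.6 and 111.3 TPM in CCS1477. DMSO and CCS1477 values did not overlap, and every *T/F* CCS1477 value lay above every *D/F* CCS1477 value. *Spi1* fell by 1.38 on the log2 scale in *D/F* (SE 0.22, limma adjusted p = 0.0169) and by 0.42 in *T/F* (SE 0.09, adjusted p = 0.0145), and the *D/F* mice kept 38.6 ± 8.07% of their DMSO level and the *T/F* mice 74.9 ± 3.95% (mean ± SD, n = 3). In *T/F* the adjusted p was 0.0993 in one fit of all 4 groups, 0.0976 without replicate 1 and 0.0699 without replicate 3.

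*Cebpa*, which encodes the factor required for granulocyte and monocyte precursors and is a frequent target of mutation in AML, was the most uniform responder. Its TPM in *D/F* was 143.7, 137.1 and 127.0 in DMSO and 61.1, 53.8 and 52.2 in CCS1477. *T/F* mice had 118.3, 107.0 and 111.0 in DMSO and 55.1, 47.9 and 49.5 in CCS1477. Both genotypes ended at nearly the same level, 55.7 ± 4.76 and 50.8 ± 3.78 TPM, with no overlap with DMSO. *Cebpa* fell by 1.27 on the log2 scale in *D/F* (SE 0.15, limma adjusted p = 0.00795) and by 1.13 in *T/F* (SE 0.08, adjusted p = 0.000506). Each *D/F* mouse kept 41.0 ± 1.66% of its DMSO level and each *T/F* mouse 45.3 ± 1.10%.

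*Gfi1*, the zinc-finger repressor that neutrophil precursors need and that recruits the LSD1 and CoREST complex, showed the largest fall of the 10. In *D/F* it went from 109.4, 38.7 and 86.9 TPM in DMSO to 7.95, 5.52 and 5.36 TPM in CCS1477. *T/F* mice went from 60.4, 55.6 and 53.4 TPM to 9.67, 7.26 and 7.31 TPM. The wide spread between the *D/F* mice in DMSO was not seen after CCS1477, where all 6 mice lay between 5.36 and 9.67 TPM. The group means were 12.5-fold lower in *D/F* and 6.99-fold lower in *T/F*, or -3.34 (SE 0.40, limma adjusted p = 0.00835) and -2.67 (SE 0.12, adjusted p = 0.000296) on the log2 scale. By its mean TPM, *Gfi1* moved from above 85.3% to above 29.5% of all genes in *D/F* and from above 78.7% to above 34.9% in *T/F*.

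*Runx3*, a Runt-domain factor best known from T and NK cells and also expressed in myeloid and dendritic cells, was at 66.7, 162.3 and 84.5 TPM in *D/F* DMSO and at 32.8, 29.5 and 32.6 TPM in CCS1477. The *T/F* mice were at 72.6, 64.7 and 103.8 TPM in DMSO and at 31.7, 36.4 and 43.4 TPM in CCS1477. As for *Gfi1*, mice that differed in DMSO ended close together, and the groups did not overlap. *Runx3* fell by 1.59 on the log2 scale in *D/F* (SE 0.33, limma adjusted p = 0.0317) and by 1.07 in *T/F* (SE 0.20, adjusted p = 0.00860). In *T/F* the adjusted p was 0.0652 without replicate 1 and 0.0526 without replicate 2. With the mouse as a block, the limma adjusted p in *D/F* was 0.0224, but 0.051 without replicate 1 and 0.0203 without replicate 2. Without replicate 3 it was 0.09, in a fit that called 0 genes of the table.

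The other C/EBP genes divided. *Cebpe*, which drives the secondary granule genes of late neutrophil precursors, was at 96.1, 31.8 and 57.4 TPM in *D/F* DMSO and at 30.7, 5.98 and 14.6 TPM in CCS1477. In *T/F* it was at 47.3, 42.2 and 27.2 TPM in DMSO and at 24.9, 21.0 and 10.2 TPM in CCS1477. Each mouse was lower after the drug although the mice differed, and DMSO and CCS1477 values did not overlap. The log2 difference was -1.92 in *D/F* (SE 0.62, limma adjusted p = 0.0959, and 0.00524 with the mouse as a block) and -1.07 in *T/F* (SE 0.37, adjusted p = 0.0605, and 0.00431 with the block). Summed neutrophil marker TPM, which also split the mice, was 9425, 2681 and 6279 in *D/F* DMSO and 9322, 1629 and 6621 after CCS1477, and 7155, 5645 and 2333 in *T/F* DMSO and 6900, 5175 and 2492 after CCS1477. Most of this sum came from *S100a8*, *S100a9* and *Ngp*. Of the 7 markers, *Retnlg* fell in *D/F* (-2.40 on the log2 scale, limma adjusted p = 0.0418, but 0.0587 with a pseudocount of 0.1) and *Mmp8* in *T/F* (-1.64, adjusted p = 0.0480, but 0.0506 to 0.307 with a pseudocount of 0.1, after quantile normalization, in one fit of all 4 groups and without replicate 1 or 3). With the block, *Camp*, *Retnlg* and *Mmp8* fell in both and *Ngp* rose in *T/F*. The part of neutrophil content in the values of *Cebpe*, and of *Cebpb* after it, was not tested.

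*Cebpb*, the C/EBP gene of emergency granulopoiesis and macrophages, was at 118.6, 36.3 and 125.3 TPM in *D/F* DMSO and at 83.2, 30.1 and 78.6 TPM in CCS1477. Its *T/F* levels were 164.3, 206.6 and 99.3 TPM in DMSO and 104.6, 127.4 and 66.8 TPM in CCS1477. It was lower in each mouse, but the groups overlapped in both genotypes, and *D/F* replicate 2, low in neutrophil markers, was low under both treatments. The log2 difference was -0.48 in *D/F* (SE 0.60, limma adjusted p = 0.637, and 0.0375 with the block) and -0.63 in *T/F* (SE 0.34, adjusted p = 0.188, and 0.00326 with the block).

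*Cebpd*, an early response gene of IL-6 signaling, went its own way. In *D/F* it was at 40.1, 15.7 and 37.5 TPM in DMSO and at 34.9, 11.98 and 39.6 TPM in CCS1477. *T/F* cells held 47.7, 47.0 and 34.4 TPM in DMSO and 49.1, 56.3 and 46.0 TPM in CCS1477. The groups overlapped in both genotypes, and 4 of the 6 mice, all 3 of *T/F* among them, were higher after CCS1477. Its log2 difference was -0.16 in *D/F* (95% interval -1.46 to 1.14, limma adjusted p = 0.878) and 0.24 in *T/F* (95% interval -0.14 to 0.61, adjusted p = 0.259), and neither passed with the block (adjusted p = 0.338 and 0.0974). The interval in *D/F*, from the fit without the block, is wide enough to hold a 2-fold change either way. That fit had an SE of 0.54, against 0.12 with the mouse as a block. The within-mouse log2 differences in *D/F* were -0.19, -0.36 and 0.08, in replicate order.

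The shares of the 4 C/EBP genes moved with these differences. Of the summed TPM of *Cebpa*, *Cebpb*, *Cebpd* and *Cebpe*, *Cebpa* made up 36.1%, 62.1% and 36.6% in the *D/F* DMSO replicates and 29.1%, 52.8% and 28.2% after CCS1477, and in *T/F* 31.3%, 26.6% and 40.8% before and 23.6%, 19.0% and 28.7% after. Its share was lower in all 6 mice and dropped by 8.68 ± 1.87 percentage points (exact sign-flip permutation p = 0.031). The share of *Cebpe* was also lower in all 6 mice and dropped by 5.81 ± 3.49 points (exact p = 0.031). *Cebpd* took a larger share in all 6, from 9.32 to 16.6% on average in *D/F* and from 12.3 to 23.3% in *T/F*, or 9.14 ± 3.33 points more (exact p = 0.031). *Cebpb*, the largest mean C/EBP share in *T/F*, averaged 27.4% before and 37.2% after CCS1477 among the *D/F* mice and 43.8% and 44.7% among the *T/F* mice, up in 5 of 6 mice (exact p = 0.0625). In *T/F* replicate 3 in DMSO it held 36.5%, below the 40.8% of *Cebpa*. The log2 ratio of *Cebpa* to *Cebpb* dropped by 0.65 ± 0.23 and was lower in all 6 mice (exact p = 0.031). The sum leaves out *Cebpg*, the C/EBP factor without an activation domain, which was at 38.2 ± 3.12 and 51.1 ± 1.57 TPM for *D/F* mice (log2 difference 0.41, limma adjusted p = 0.107, and 0.0414 with the block) and rose from 37.7 ± 1.25 to 49.2 ± 0.334 TPM in *T/F* (0.38, adjusted p = 0.00408, and 0.0604 without replicate 1). With it in the sum, the *Cebpa* share dropped by 11.5 points that of *Cebpe* dropped by 6.12 points and that of *Cebpd* was 6.08 points higher (exact sign-flip permutation p = 0.031 for each), and for *Cebpb* the change was 0.312 points (exact p = 0.844). These shares are taken within a library, so they do not depend on how libraries are scaled to one another, but they are parts of a whole and do not move independently. Within a genotype, the exact permutation test of 3 against 3 gave 0.1, its smallest value, for *Cebpd* in both, and 0.2 to 0.8 for the other C/EBP genes.

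**Figure D3:**
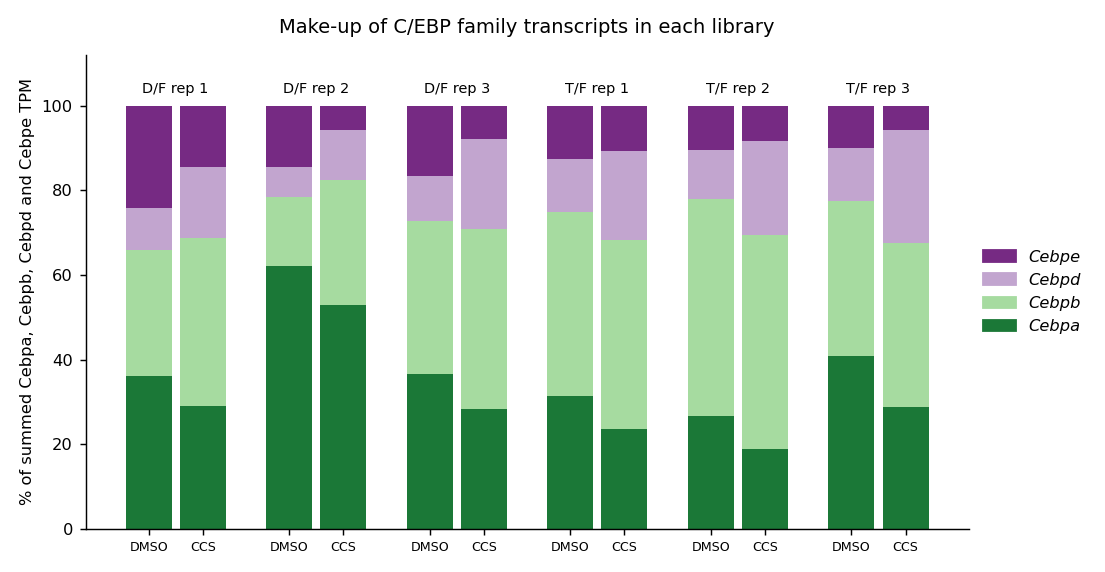
Percent of the summed TPM of *Cebpa*, *Cebpb*, *Cebpd* and *Cebpe* held by each gene (y axis), per library (x axis: mouse and treatment, *D/F* and *T/F*). In every mouse the *Cebpa* and *Cebpe* segments shrink and the *Cebpd* segment grows after CCS1477, and *D/F* replicate 2 differs from the other mice in its large *Cebpa* share, 62.1% in DMSO.

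*Irf8*, needed for monocytes and for dendritic cells, was in *D/F* at 36.1, 82.1 and 79.3 TPM in DMSO and at 29.5, 18.8 and 30.0 TPM in CCS1477. In *T/F* it was at 65.6, 100.4 and 108.0 TPM in DMSO and at 33.1, 43.8 and 39.3 TPM in CCS1477. The groups did not overlap, and *D/F* replicate 1, which began lowest, kept 81.7% of its level where replicates 2 and 3 kept 22.8% and 37.8%. *Irf8* fell by 1.19 on the log2 scale in *T/F* (SE 0.21, limma adjusted p = 0.00669), with an adjusted p of 0.0630 without replicate 2 and 0.0518 without replicate 3. In *D/F* the log2 difference was -1.24 (SE 0.37), and the adjusted p was 0.0754, or 0.0595 with the block. It passed in one fit of all 4 groups (adjusted p = 0.0148) and with the block without replicate 1 (-1.72, adjusted p = 0.0419), and without replicate 2 the difference was -0.83. *D/F* replicate 1 also had the lowest summed TPM of 4 dendritic cell markers in DMSO, 11.1 against 41.4 and 22.5, which became 9.77, 20.5 and 13.2 after CCS1477, and the part of dendritic cells in the *Irf8* values was not tested.

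*Irf5*, a mediator of Toll-like receptor signaling in macrophages, was at 30.7, 88.0 and 43.5 TPM in *D/F* DMSO and at 21.7, 30.3 and 25.9 TPM in CCS1477. The *T/F* replicates had 39.3, 83.1 and 93.3 TPM in DMSO and 35.7, 58.7 and 58.1 TPM in CCS1477. The groups did not overlap in *D/F* and overlapped in *T/F*. The log2 difference was -0.91 in *D/F* (SE 0.38, limma adjusted p = 0.171, and 0.0416 with the block) and -0.43 in *T/F* (SE 0.37, adjusted p = 0.389, and 0.0475 with the block).

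*Irf4*, the close relative of *Irf8* that shares PU.1 as a partner and is best known from B cells, plasma cells and some dendritic cells, was the lowest of the 10 in every group. It was at 3.34, 7.46 and 1.65 TPM in *D/F* DMSO and at 1.75, 4.45 and 1.44 TPM in CCS1477. *T/F* mice had 2.63, 4.93 and 6.83 TPM in DMSO and 1.68, 2.22 and 3.15 TPM in CCS1477. Each mouse was lower with the drug, but at these levels the groups overlapped. The log2 difference was -0.47 in *D/F* (SE 0.49, limma adjusted p = 0.567, and 0.0667 with the block) and -0.75 in *T/F* (SE 0.31, adjusted p = 0.104, and 0.0121 with the block), on a log2(TPM + 1) scale that understates the change of a gene this low.

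After CCS1477 the ranking of the factors was different. In *D/F* the highest means were *Cebpb*, *Cebpa* and *Spi1*, at 64.0 ± 29.4, 55.7 ± 4.76 and 54.2 ± 13.7 TPM, which overlapped. In *T/F*, *Spi1* and *Cebpb* still led, at 121.2 ± 12.1 and 99.6 ± 30.6 TPM, and *Irf5*, *Cebpa* and *Cebpd* followed at 50.8 ± 13.1, 50.8 ± 3.78 and 50.5 ± 5.31 TPM. *Gfi1* was next to last in both, above *Irf4*.

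The genotype comparison asked whether loss of *Dnmt3a* and loss of *Tet2* left the AML cells with different amounts of these factors. In DMSO, 0 of the 10 genes differed by limma (adjusted p 0.803 to 0.965), where 5 of 15265 genes (0.0328%) did, and 1 gene, *Cebpa*, had an unadjusted p under 0.05, as had 6.15% of all genes. Its mean TPM was 135.9 ± 8.42 among *D/F* and 112.1 ± 5.70 among *T/F* mice, a log2 difference of -0.28 (*T/F* minus *D/F*, 95% interval from -0.55 to just under 0, adjusted p = 0.803). The widest interval was that of *Cebpb*, 0.87 with bounds of -0.42 and 2.16, so that for this gene *T/F* cells could hold more than 2-fold the *D/F* level. With 1 mouse left out, the *Cebpb* difference was 0.30 to 1.18. With CCS1477, 0 of the 10 genes passed, where 5 of 15199 genes (0.0329%) did, and 3 had an unadjusted p under 0.05, as had 10.8% of all genes. These were *Spi1*, higher in *T/F* by 1.17 on the log2 scale (SE 0.21, adjusted p = 0.162), *Irf5* by 0.92 (SE 0.23, adjusted p = 0.281) and *Irf8* by 0.57 (SE 0.21, adjusted p = 0.426). In one fit of all 4 groups, *Spi1* passed (adjusted p = 0.0248). Genotype and dose cannot be told apart in this comparison, since *D/F* cells had received 4 µM and *T/F* cells 2 µM.

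A fit of all 12 libraries compared the 2 responses directly, and 0 of the 10 genes passed, as did 0% of the 15583 genes tested. Of the 10, 1 gene, *Spi1*, had an unadjusted limma p under 0.05, beside 4.23% of all genes, and with the mouse as a block 3 had, *Spi1*, *Cebpe* and *Cebpd*, beside 14.7%. Its log2 difference was less negative in *T/F* by 0.96 (SE 0.24, 95% interval 0.43 to 1.49, limma adjusted p = 0.932, and 0.170 with the block). For *Cebpe* the difference was 0.85 (adjusted p = 1.00, and 0.203 with the block) and for *Cebpd* 0.39 (adjusted p = 1.00, and 0.326 with the block). For *Cebpa* the difference was 0.15 with a 95% interval of -0.18 to 0.47, which leaves out a 2-fold difference between the responses, and for *Gfi1* it was 0.67 with an interval of -0.33 to 1.66, which does not. Genotype and dose cannot be told apart here either.

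**Figure D4:**
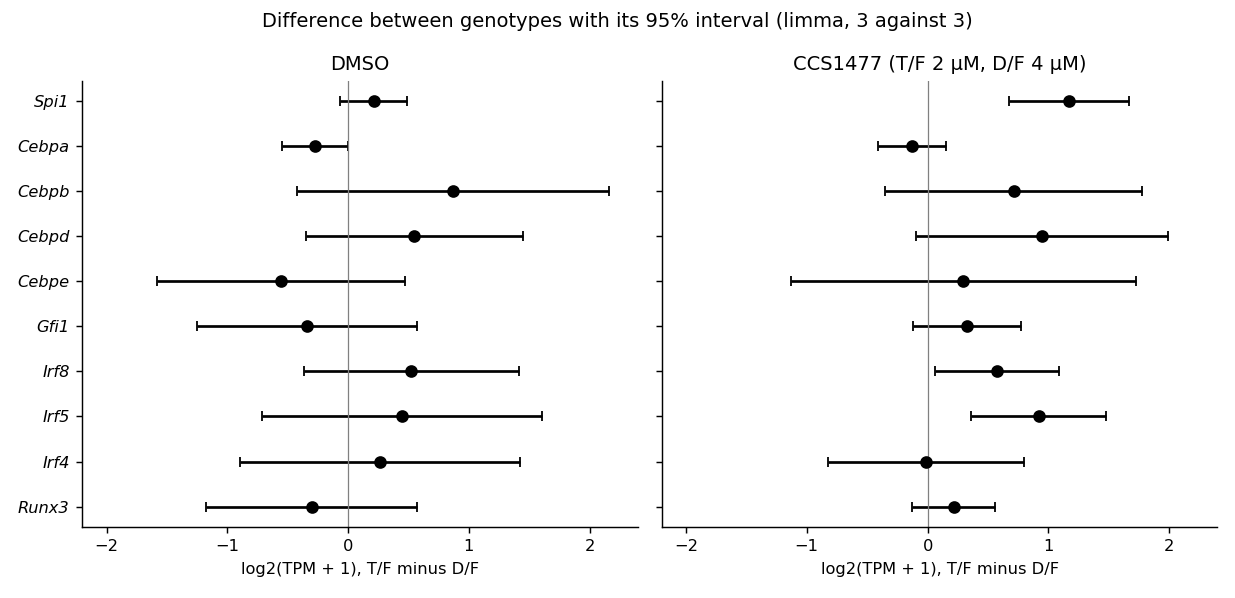
Difference of log2(TPM + 1) between the genotypes, *T/F* minus *D/F* (x axis), for each factor (y axis), in DMSO (left) and in CCS1477 (right, with the doses of 2 and 4 µM); points are limma estimates over 3 mice against 3 and bars are 95% intervals. In DMSO all bars but that of *Cebpa* cross 0, in CCS1477 those of *Spi1*, *Irf8* and *Irf5* lie above 0, and none of the differences passed after adjustment.

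Genes that act with these factors were taken as 4 lists, also chosen with earlier results of these data known. Of 26 textbook targets of PU.1 and the C/EBP factors, 7 fell in *D/F* (6.51% of all genes fell) and 12 in *T/F* (17.6%) and 0 rose, with median log2 differences of -1.05 and -0.60. *Csf1r*, the M-CSF receptor and a classic PU.1 target, went from 20.6 ± 7.53 to 2.92 ± 1.12 TPM in *D/F* (-2.45 on the log2 scale, SE 0.31, limma adjusted p = 0.00953) and from 39.4 ± 10.3 to 8.04 ± 2.80 TPM in *T/F* (-2.18, SE 0.30, adjusted p = 0.00285, but 0.0501 without replicate 2). *Itgam*, which encodes the integrin CD11b, went from 78.3 ± 28.8 to 22.2 ± 11.4 TPM in *D/F* (-1.84, adjusted p = 0.0410, but 0.0537 with a pseudocount of 0.1 and 0.0544 without replicate 2) and from 102.1 ± 5.55 to 30.1 ± 1.70 TPM in *T/F* (-1.73, adjusted p = 0.000284). The alarmins *S100a8* and *S100a9*, the most abundant that passed in neither genotype, kept to their mouse: *S100a8* was 4682, 1370 and 3017 TPM in *D/F* DMSO and 4601, 806.8 and 3245 TPM in CCS1477 (-0.23, adjusted p = 0.872), and in *T/F* its log2 difference was -0.11 (adjusted p = 0.875). For *S100a9* it was -0.16 in *D/F* (adjusted p = 0.903) and 0.10 in *T/F* (adjusted p = 0.900). With the mouse as a block, 17 of the 26 fell in *D/F*, beside 18% of all genes, and in *T/F* 18 fell and 1 rose, beside 22.9% and 31.2%.

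Of 9 monocyte and dendritic cell genes associated with IRF8, 3 fell in *D/F* and 4 in *T/F* and 0 rose (medians -1.12 and -0.82), beside 6.51% and 17.6% of all genes that fell. With the block 7 and 8 fell, beside 18% and 22.9%. *Ccr2*, the chemokine receptor of inflammatory monocytes, went from 118.6 ± 21.7 to 6.52 ± 2.27 TPM in *D/F* (-4.02 on the log2 scale, SE 0.27, limma adjusted p = 0.00310) and from 275.9 ± 56.8 to 38.7 ± 8.81 TPM in *T/F* (-2.81, SE 0.20, adjusted p = 0.000536). *Ciita*, the master activator of MHC class II genes, went from 13.5 ± 10.4 to 1.14 ± 0.425 TPM in *D/F* (-2.51, adjusted p = 0.0359) and from 22.5 ± 14.4 to 3.09 ± 2.16 TPM in *T/F* (-2.49, adjusted p = 0.0131, but 0.0968 without replicate 2). *Ly6c2*, a surface marker of inflammatory monocytes, had log2 differences of -1.12 in *D/F* (adjusted p = 0.266, and 0.00742 with the block) and -0.82 in *T/F* (adjusted p = 0.0975, and 0.00385 with the block). The lysosomal protease gene *Ctss* had -1.12 (adjusted p = 0.0678, and 0.0397 with the block) and -0.78 (adjusted p = 0.0875, and 0.00492 with the block). Summed TPM over 4 macrophage markers was 16.0 to 22.3 in *D/F* DMSO and 2.72 to 4.31 after CCS1477, and 19.3 to 32.1 and 5.93 to 12.3 in *T/F*. The part of macrophages in the results of these lists was not tested.

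The 14 relatives were other genes of the same families and *Cbfb*, the partner subunit of all RUNX factors. Of these, 1 fell and 0 rose in *D/F*, where 6.51% of all genes fell and 5.14% rose, and 1 fell and 4 rose in *T/F*, where 17.6% fell and 25.8% rose, and their median log2 differences were 0.16 and 0.18. *Runx1*, the Runt factor that makes blood stem cells and is mutated in AML, was the one that fell in both, from 64.7, 114.6 and 65.3 to 18.4, 13.4 and 16.5 TPM in *D/F* (-2.23 on the log2 scale, SE 0.27, limma adjusted p = 0.00850) and from 58.8, 68.4 and 71.9 to 32.6, 40.3 and 34.2 TPM in *T/F* (-0.88, SE 0.12, adjusted p = 0.00251). *Cbfb* was 102.0 ± 12.8 and 90.9 ± 11.1 TPM in *D/F* (adjusted p = 0.563) and 108.5 ± 5.52 and 115.7 ± 3.12 TPM in *T/F* (adjusted p = 0.299). *Irf1* was 72.9 ± 25.4 and 91.4 ± 27.6 TPM in *D/F* (adjusted p = 0.527, and 0.0438 with the block) and 66.8 ± 14.5 and 80.7 ± 3.08 TPM in *T/F* (adjusted p = 0.197). With the block, 4 of the 14 rose and 2 fell in *D/F*, beside 21.4% and 18% of all genes, and 5 rose and 3 fell in *T/F*, beside 31.2% and 22.9%.

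Of 17 cofactors and antagonists, 15 were tested, and *Egr2* and *Trib2* were not in the table. In *D/F* 2 fell and 0 rose, beside 6.51% and 5.14% of all genes, and in *T/F* 3 fell and 3 rose, beside 17.6% and 25.8% (medians -0.14 and -0.33). The *T/F* shares of these 15 lie near those of all genes. With the block 4 fell and 2 rose in *D/F*, beside 18% and 21.4% of all genes, and 7 fell and 4 rose in *T/F*, beside 22.9% and 31.2%. *Myb*, the progenitor factor that binds p300 and CBP, fell in both, from 345.5 ± 55.2 to 68.1 ± 10.5 TPM in *D/F* (-2.33 on the log2 scale, SE 0.19, limma adjusted p = 0.00430) and from 239.3 ± 18.5 to 78.7 ± 14.3 TPM in *T/F* (-1.61, SE 0.15, adjusted p = 0.000933). *Id2*, which blocks E proteins, had log2 differences of -0.79 (adjusted p = 0.212, and 0.0402 with the block) and -1.05 (adjusted p = 0.0958, and 0.00261 with the block). *Zfpm1*, the GATA1 partner FOG1, had 0.70 in *D/F* (adjusted p = 0.576, but 0.0198 without replicate 2, with a difference of 0.99) and 0.45 in *T/F* (adjusted p = 0.116, and 0.0120 with the block), and in DMSO it was far higher in *D/F* replicate 2, at 60.6 TPM, than in replicates 1 and 3, at 10.02 and 11.9 TPM.

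**Figure D5:**
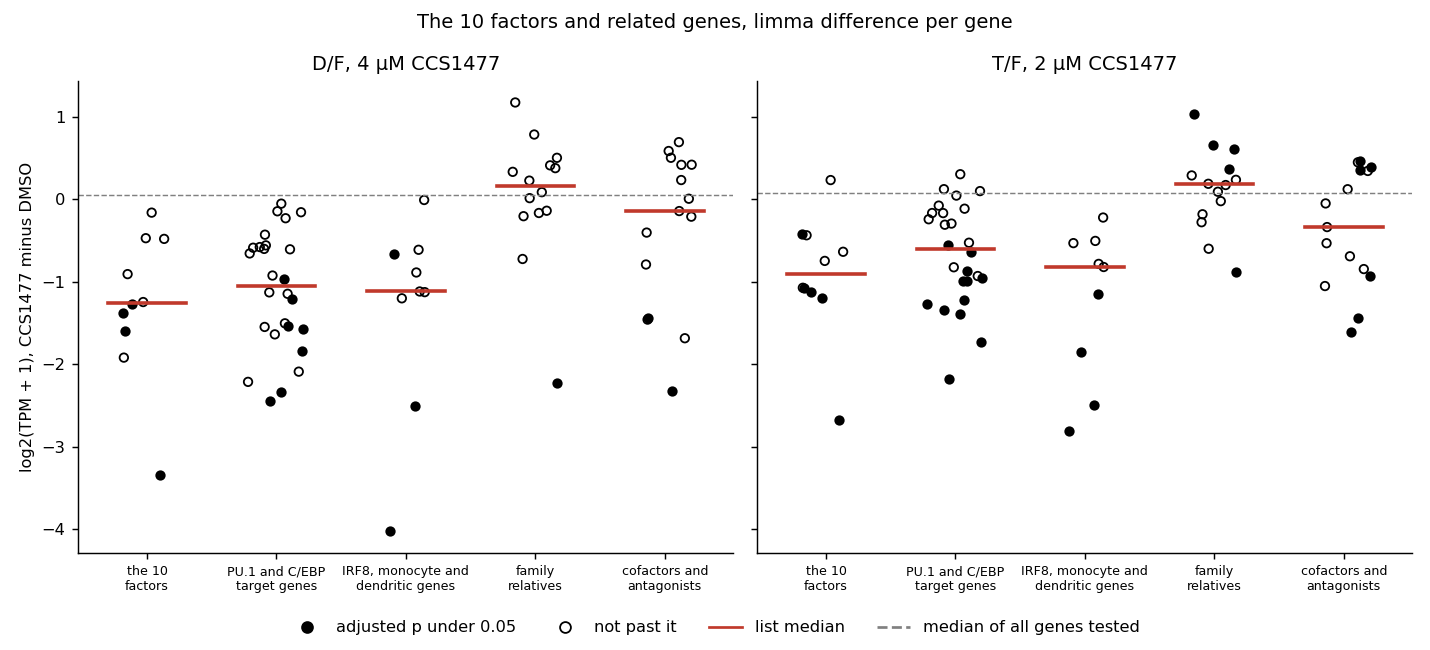
Difference of log2(TPM + 1), CCS1477 minus DMSO (y axis), of each gene among the 10 factors and the 4 lists of related genes (x axis) in *D/F* (left) and *T/F* (right), with filled points for genes past an adjusted p of 0.05, red bars for list medians and a dashed line at the median of all genes tested. The medians of the 10 factors (-1.26 and -0.91), of the PU.1 and C/EBP targets (-1.05 and -0.60) and of the IRF8 genes (-1.12 and -0.82) lie below 0. That of the cofactors and antagonists (-0.14 and -0.33) also does, and that of the family relatives (0.16 and 0.18) does not.

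The genes most like a factor were sought among the 11603 genes that averaged 5 TPM or more. The measure was the root mean square (RMS) difference of log2(TPM + 1) over the 12 libraries, each gene centred on its own mean. It was taken for the 4 factors that fell in both genotypes without the mouse as a block. Nearest to *Spi1* were *Fes* (RMS difference 0.146), *Zfp710* (0.171) and *Cd53* (0.182). Nearest to *Cebpa* were *Mgat5* (0.117), *Gne* (0.129) and *Tnfrsf21* (0.131). *Runx3* was followed most closely by *Ptpre* (0.159), *Endod1* (0.194) and *Lgals9* (0.200). *Gfi1* had no neighbour as close, with *Gpr84* at 0.253, *Cldn15* at 0.301 and *Clec12a* at 0.319, but its own spread about its mean was 1.55, against 0.62 to 0.75 for the other 3 factors. The likeness is a description over 12 libraries that share mice and treatments.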

How the data were processed

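RNA-seq of 12 libraries was analysed, 3 mice in each of 2 genotypes under DMSO or CCS1477, with groups taken from the sample labels. The authors deposited gene-level TPM, processed in AltAnalyze with kallisto and mm10 named in the processing notes. The strand setting and annotation are not given in the sources used here. TPM is linear, relative to each library's total, with no spike-in and no read counts, so the depth behind a value and its counting error are unknown. Every gene reaches at least 2.00 TPM in some library.

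Identifiers were joined to symbols for 15252 of 15651 genes. The 10 genes and all gene lists were chosen with earlier results of these data known, so that no list is independent evidence of its direction. Differences were tested by the moderated test of limma 3.58.1 (R 4.3.3), two-sided, after log2 transformation with a pseudocount of 1 TPM, with eBayes run without a trend. Benjamini-Hochberg adjustment covered all genes that averaged 1 TPM or more in some group of the comparison. The same mouse gave the DMSO and CCS1477 cells, by the labels, although for D/F replicate 3 a column name in the study's own data gives another mouse number. Deviations from the group means had correlations within a mouse of 0.539, 0.669 and 0.541 (D/F) and 0.383, 0.354 and 0.496 (T/F), and of at most 0.141 between mice, so the numbers pair the samples and values with the mouse as a block stand beside each result whose call they change. Single genes had exact permutation tests. Named genes were the 10, from each list up to 2 genes each way with the largest smaller change among those past an adjusted p of 0.05 in both genotypes and up to 2 of the highest mean TPM that passed in neither, and the 3 genes nearest to each of the 10 that passed in both. *Cebpg*, *Irf7* and the neutrophil markers were named after their values were seen. Promoter sequences came from RefSeq. Alternatives were a smaller pseudocount (0.1), a higher filter (5 TPM) or none, quantile normalization, scaling to the median gene, a trended eBayes, a fit of 4 groups, the mouse as a block, *Cebpg* added to the C/EBP sum, and leaving out each mouse. The block with a mouse left out was added after seeing the data.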

Additional observations from a re-analysis of the deposited data

How the results depend on the processing

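The number of factors that fell, 4 (D/F) and 5 (T/F), increased to 7 and 9 in the paired analysis, with the mouse as a block. It stayed within 1.5 times of 4 and 5 under the other settings with all mice. In one fit of 4 groups it was 6 for D/F, where 14.4% of all genes fell, and 4 for T/F, where 10.5% did. Leaving out a mouse gave 0 to 5 for D/F and 3 to 4 for T/F, and, blocked, 0 to 7 and 7 to 9. In D/F, 0 genes of the table passed without replicate 1 or 3, so these fits say nothing about single factors. The number that differed between genotypes or in response was 0 throughout, except 1 (Spi1) in CCS1477 in one fit of 4 groups. Small log2 differences changed sign. Irf4 under CCS1477 (T/F minus D/F, -0.012) was 0.014 with a pseudocount of 0.1, 0.0066 after scaling to the median gene, 0.070 after quantile normalization and -0.23 to 0.35 without 1 mouse. Within mouse, Cebpd (0.038) was -0.026 after scaling to the median gene and -0.037 to 0.12 without 1 mouse. Without 1 mouse, the genotype difference in DMSO was -0.13 to 0.70 for Irf4 and -0.57 to 0.068 for Runx3, that of Cebpe in CCS1477 was -0.26 to 0.83, and the response difference of Irf8 was -0.36 to 0.53. With or without the block, the D/F difference without 1 mouse was -0.27 to 0.014 for Cbfb, -0.39 to 0.040 for S100a8 and -0.30 to 0.12 for S100a9, and the T/F difference of S100a9 was -0.0029 to 0.17. With 5 mice, the exact p of each within-mouse difference and C/EBP share that had reached 0.031 was 0.0625, the smallest possible. The causes were not tested. Depth is unknown, so the error of low genes such as Irf4 could not be stated.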

Other observations

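*Irf7*, the interferon regulatory factor that amplifies type I interferon production, was at 6.16, 10.9 and 3.86 TPM in *D/F* DMSO and at 15.1, 24.9 and 10.5 TPM after CCS1477, and in *T/F* at 7.09, 6.91 and 12.7 TPM and at 17.2, 15.3 and 24.5 TPM. Every mouse was higher with CCS1477. *Irf7* rose by 1.04 on the log2 scale in *T/F* (SE 0.27, limma adjusted p = 0.0258), where 25.8% of all genes rose. That adjusted p was 0.0743 in one fit of all 4 groups, 0.136 without replicate 1 and 0.111 without replicate 2. In *D/F* the difference was 1.18 (SE 0.42, adjusted p = 0.118, and 0.00504 with the mouse as a block). It was singled out after its values were seen, as a family member opposite in direction to *Irf8*.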
